A study of Mus musculus with 12 samples.

Results

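The effect of metformin on cells that already received FK506 (tacrolimus) was examined by comparing 3 samples given both drugs (Metformin+FK506) with 3 samples given FK506 alone. The features compared were all genes with an FPKM (fragments counted per kilobase of transcript, adjusted for library size) of at least 0.5 in at least 3 of these 6 samples, which kept 14420 of the 45777 genes listed. Splenic CD4+ T cells of wild type C57BL/6 mice aged 7 weeks were the source of both groups, and every culture was stimulated with anti-CD3 at 0.5 µg/ml for 3 days. The series also holds 3 samples without a drug (Control) and 3 with metformin alone, which entered the same fit and gave the effect of metformin without FK506. The labels give neither the drug doses of these cultures nor the mice behind each sample, so the p-values measure the spread between these samples, which may be technical.

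FK506 binds the immunophilin FKBP12 (gene Fkbp1a), and the complex inhibits calcineurin, the phosphatase that lets NFAT factors enter the nucleus and switch on cytokine genes after T cell receptor stimulation. Metformin is a biguanide that inhibits complex I of the mitochondrial respiratory chain, and the fall in cellular energy charge activates the kinase AMPK. Mitochondrial inhibition also engages the integrated stress response, in which the transcription factor ATF4 induces genes of amino acid synthesis and transport. In activated T cells, growth, glycolysis and division depend on both calcineurin signalling and mitochondrial metabolism.

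The 6 libraries held between 43402632 and 64290105 counted reads. The 10 highest genes took 4.21% to 4.39% of the reads with FK506 and 4.54% to 4.79% with the combination, and the 13 protein genes of the mitochondrial genome took 2.50% to 2.69% and 2.75% to 3.02%. No pair of replicates looked like 1 library deposited again: chi-square divided by its degrees of freedom was at least 7.11 in every pair. T cell markers were high in all 6 samples, with a mean FPKM of 199 and 242 for Cd4 and of 195 and 242 for Cd3e in the FK506 and the combination group. The labelled CD4+ T cells were accompanied in both groups by markers of B cells and macrophages, which are described with their own values below.

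Metformin given with FK506 changed 4658 of the 14420 genes (32.3%) by the quasi-likelihood test of edgeR at a Benjamini-Hochberg adjusted p of 0.05. Of these, 2289 (15.9% of the genes tested) were higher and 2369 (16.4%) were lower with the combination. Most changes were small. The median size of the log2 fold change among the changed genes was 0.34, and 266 genes rose and 323 fell at least 2-fold. In 39.6% of the genes tested, the FPKM values of the 3 samples of one group did not overlap those of the other, with 2428 genes higher and 3281 lower. The split between the directions depended on the scaling: with library sizes set by 14 T cell genes in place of all genes, the median log2 fold change of all genes moved from -0.0030 to -0.11, and 1227 genes were higher and 4712 lower. Counts under this scaling are given beside a list where it turned the direction or moved a count by over 1.5 times. Among the other main lists it gave 13 higher and 3 lower for the ATF4 response, 5 and 4 for Th17, and 11 naive T cell, 11 ER chaperone and 19 cholesterol genes lower. Where a list had 0 genes in one direction by edgeR, the count in that direction was also 0 at an unadjusted p under 0.05, by DESeq2 and by limma with a pseudocount of 1, except where stated. List counts below are to be read beside the shares of all genes tested. Between Metformin and Control 57.0% changed, with 4135 higher and 4087 lower. The difference between the effects of metformin with and without FK506 (the interaction) passed for 48.0%. The plot of log2 fold changes by list shows the members of the main groups.

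**Figure D1:**
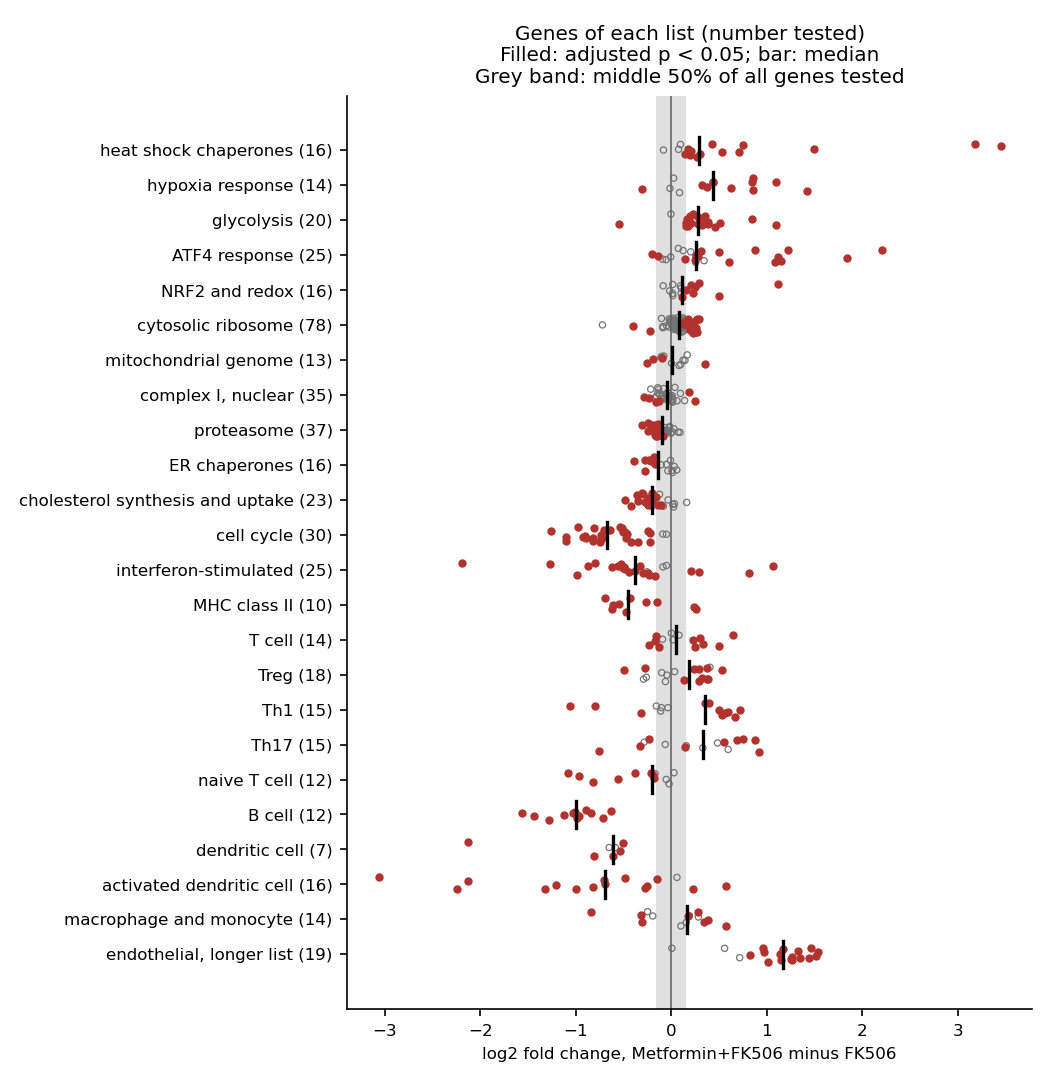
Log2 fold changes of Metformin+FK506 against FK506 (x axis) for the tested genes of 24 lists (y axis), with genes past an adjusted p of 0.05 filled, the median of each list as a bar, and the middle 50% of all genes as a grey band. Cell cycle and B cell genes lay to the left, with medians of -0.67 and -1.0. The longer list of endothelial genes lay to the right, with a median of 1.16. That list and those of heat shock chaperones and activated dendritic cells were added after the values had been seen.

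Heat shock chaperones rose, and the HSP70 gene Hspa1b headed the 12 largest rises. These proteins refold damaged proteins, and their genes are transcribed by the heat shock factor HSF1. Hspa1b (gene ID 15511, chr17:34956429-34959238 in GRCm38.p6), which encodes an inducible HSP70, had FPKM values of 6.61, 6.35 and 6.11 with FK506 and of 67.95, 73.9 and 64.05 with Metformin+FK506. Every combination sample lay far above every FK506 sample, and the log2 fold change was 3.45 (standard error 0.0797, edgeR adjusted p = 2.87e-14). Its neighbour and near-identical copy Hspa1a (gene ID 193740, chr17:34969359-34972156) showed a log2 fold change of 3.17 (standard error 0.0862). How reads shared between the copies were divided is not stated, so the separate values of this pair are uncertain. Of 16 heat shock genes, a list drawn up after the values had been seen, 13 were higher and 0 lower by edgeR, with a median log2 fold change of 0.29 against -0.0030 for all genes. At an unadjusted p under 0.05 Hspa4 was lower, as it was by limma, and with library sizes set by T cell genes 8 were higher and 1 lower. The small chaperone Hspb1 rose by 1.49 on the log2 scale, the HSP110 gene Hsph1 by 0.71, the co-chaperone Bag3 by 0.53 and Hsp90aa1 by 0.42. Hsph1 had FPKM values of 42.1, 41.8 and 42.5 with FK506 and 67.2, 64.7 and 70.8 with the combination, which did not overlap. Without FK506 the list went the other way, with 4 of the 16 higher and 8 lower with metformin and a median of -0.11. Over all 14420 genes, 4135 were higher and 4087 lower in that comparison. The interaction passed for 12 of the 16, beside 48.0% of all genes tested. The mitochondrial chaperonin gene Hspd1 (log2 fold change 0.075) and Hspa4 (-0.083) did not pass the test.

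The start regions of both HSP70 genes are shown because Hspa1b had the largest rise of the named genes and Hspa1a is its copy. The sequences come from RefSeq (GRCm38.p6) and run 5′ to 3′ on the strand of the gene, from 150 to 51 bases before the start site, with a match to the heat shock element core GAANNTTC in capitals.
Hspa1b (chr17:34959289-34959388, minus strand): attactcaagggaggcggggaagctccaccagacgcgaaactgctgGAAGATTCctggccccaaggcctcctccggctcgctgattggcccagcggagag
Hspa1a (chr17:34972207-34972306, minus strand): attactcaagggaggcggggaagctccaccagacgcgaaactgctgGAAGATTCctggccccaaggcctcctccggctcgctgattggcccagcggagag
The stretches of the pair were identical in all 100 bases. Searched on both strands, from 250 bases before to 50 after the start, GAANNTTC was found in 8 of the 12 heat shock genes with a RefSeq start window (66.7%), against 6.99% of the 10249 tested genes with one. A match in these letters is a description and does not show binding.

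Genes of the ATF4 response rose with the combination. Of 25 tested, 15 were higher and 2 lower, with a median log2 fold change of 0.26. Atf5, a transcription factor of the same family, had FPKM values of 6.82, 6.54 and 7.03 with FK506 and 31.2, 32.8 and 28.6 with the combination. The groups were widely apart, and the log2 fold change was 2.21 (standard error 0.0730, edgeR adjusted p = 1.7e-12). Asns (gene ID 27053, chr6:7675165-7693209), which encodes asparagine synthetase, had values of 3.62, 2.76 and 3.02 and of 7.02, 6.91 and 7.88. It rose in every sample above the FK506 range, by 1.22 on the log2 scale (standard error 0.0790, edgeR adjusted p = 5.54e-09). Chac1, which degrades glutathione, rose by 1.84, the pseudokinase gene Trib3 by 1.15, the stress factor genes Nupr1 and Atf3 by 1.12 and 1.09, and Ddit3, which encodes CHOP, by 0.49. Mthfd2, a mitochondrial enzyme of folate metabolism, had FPKM values of 21.1, 19.4 and 19.6 with FK506 and of 37.2, 37.1 and 34.3 with the combination. These did not overlap, and its log2 fold change was 0.87. Slc3a2, the heavy chain of amino acid transporters, rose by 0.60 and Atf4 itself by 0.26. The exceptions were the serine synthesis genes Phgdh and Psat1, with log2 fold changes of -0.20 and -0.14 (edgeR adjusted p = 0.00696 and 0.0229). Of 17 alternatives, Psat1 missed the threshold under 5 and Phgdh under 1. The number lower was 1 without FK506 replicate 2, Metformin+FK506 replicate 1 or Metformin+FK506 replicate 2. It was 1 with only the 6 samples, and 0 with these and the replicate number as a block. Slc7a11, the cystine transporter, had a log2 fold change of -0.093 and did not pass the test.

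Promoter stretches of 4 risen ATF4 response genes are shown, each ending before the start site, with matches to TGATGNAA on either strand in capitals.
Asns (chr6:7693210-7693309, minus strand): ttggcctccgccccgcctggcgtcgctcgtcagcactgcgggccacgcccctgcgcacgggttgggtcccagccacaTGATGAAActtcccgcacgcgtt
Chac1 (chr2:119351003-119351102, plus strand): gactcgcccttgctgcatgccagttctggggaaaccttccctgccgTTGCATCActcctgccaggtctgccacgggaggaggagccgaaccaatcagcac
Atf3 (chr1:191183390-191183489, minus strand): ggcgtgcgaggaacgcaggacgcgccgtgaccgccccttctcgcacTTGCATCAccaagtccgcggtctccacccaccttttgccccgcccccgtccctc
Nupr1 (chr7:126625527-126625626, minus strand): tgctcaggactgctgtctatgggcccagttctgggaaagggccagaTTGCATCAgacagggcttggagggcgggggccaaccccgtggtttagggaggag
TGATGNAA, a form of the element that ATF4 and C/EBP factors bind, was present in 7 of 24 ATF4 response genes with a start window (29.2%), against 2.81% of all tested genes with one. In the 4 genes shown, the first base of the match lay 23 bases before the start site in Asns, 193 in Chac1, and 110 in both Atf3 and Nupr1.

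**Figure D2:**
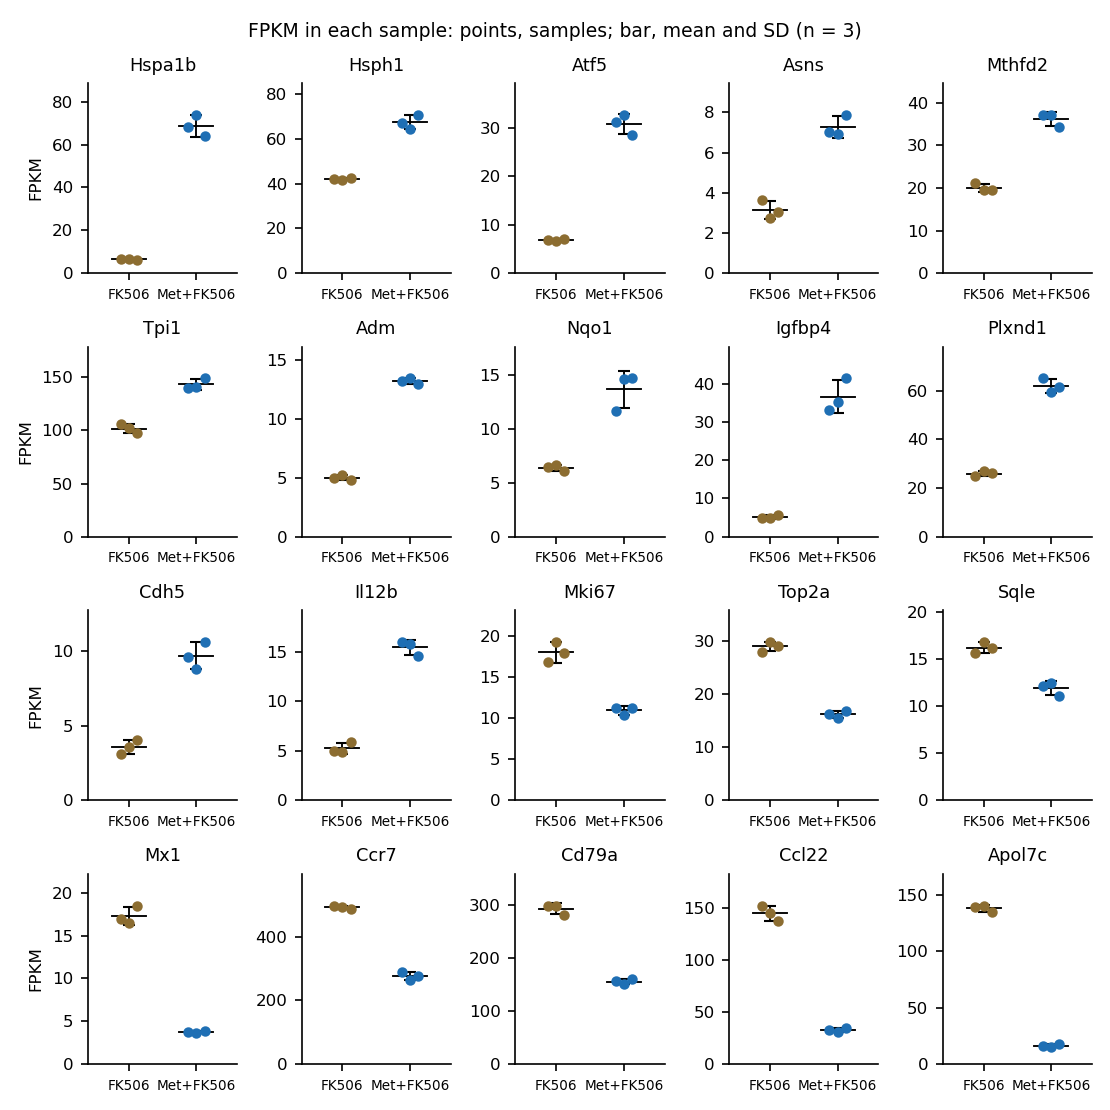
FPKM of 20 genes (y axes, each from 0) in the 3 FK506 samples and the 3 Metformin+FK506 samples (x axis), with each sample as a point and the mean and SD as a bar. The groups did not overlap in any of the 20 genes, with 12 higher and 8 lower in the combination. Several of these genes had been named by a rule that requires this. Over all genes tested, the groups did not overlap in 39.6%.

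Glycolysis genes rose slightly. Of 20 genes that import glucose, run glycolysis or export lactate, 18 were higher and 1 lower, at a median log2 fold change of 0.28, and 13 were higher and 1 lower with library sizes set by T cell genes. Tpi1, which encodes triosephosphate isomerase, had FPKM values of 106, 102 and 97.3 with FK506 and of 140.2, 141 and 149 with the combination. All 3 combination samples were above the FK506 samples, and the log2 fold change was 0.51 (standard error 0.0472, edgeR adjusted p = 3.58e-07). Gapdh, Ldha and Aldoa, the abundant enzymes, rose by 0.20, 0.22 and 0.35 on the log2 scale, and their values are uncertain to the extent that reads were shared with processed pseudogenes. The lactate exporter gene Slc16a3 rose by 0.85, hexokinase gene Hk2 by 0.46, and Aldoc, at a mean FPKM of only 1.38 with FK506, by 1.09. Pfkfb3, whose product makes the allosteric activator of phosphofructokinase, was the exception and fell by 0.55. Slc2a3, the glucose transporter GLUT3, did not pass the test (log2 fold change -0.0047).

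Without FK506 the same drug had moved these genes the other way. Between Metformin and Control, 0 of the 20 glycolysis genes were higher and 20 were lower, with a median log2 fold change of -1.54 (0 were higher at an unadjusted p under 0.05 too). The difference between the effect of metformin with and without FK506, tested as the interaction in the same fit, passed for 20 of the 20, beside 48.0% of all genes tested. The summed FPKM of the 20 genes had a median of 12380 in Control and 4793 with metformin, and of 2366 in the FK506 and 2707 in the combination samples, so the comparison against FK506 starts from the lowest level of the 4 groups.

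The hypoxia response behaved in the same manner. Of 14 genes induced by hypoxia-inducible factor, 10 were higher and 1 was lower in the combination samples, with a median log2 fold change of 0.44, whereas between Metformin and Control 0 were higher and 13 lower, with a median of -1.26. Adm, the gene for the vasodilator adrenomedullin, had FPKM values of 4.95, 5.21 and 4.79 with FK506 and of 13.2, 13.4 and 12.9 with the combination. The 2 ranges were well separated, and its log2 fold change was 1.42 (standard error 0.113, edgeR adjusted p = 6.19e-08). Vegfa, an endothelial growth factor gene, rose by 1.09, the prolyl hydroxylase gene Egln3 by 0.86 and the mitophagy receptor gene Bnip3 by 0.63. Mxi1, a Myc antagonist, fell by 0.31. Hif1a itself rose by 0.14 (edgeR adjusted p = 0.0209) and missed the threshold under 7 of 17 alternatives.

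**Figure D3:**
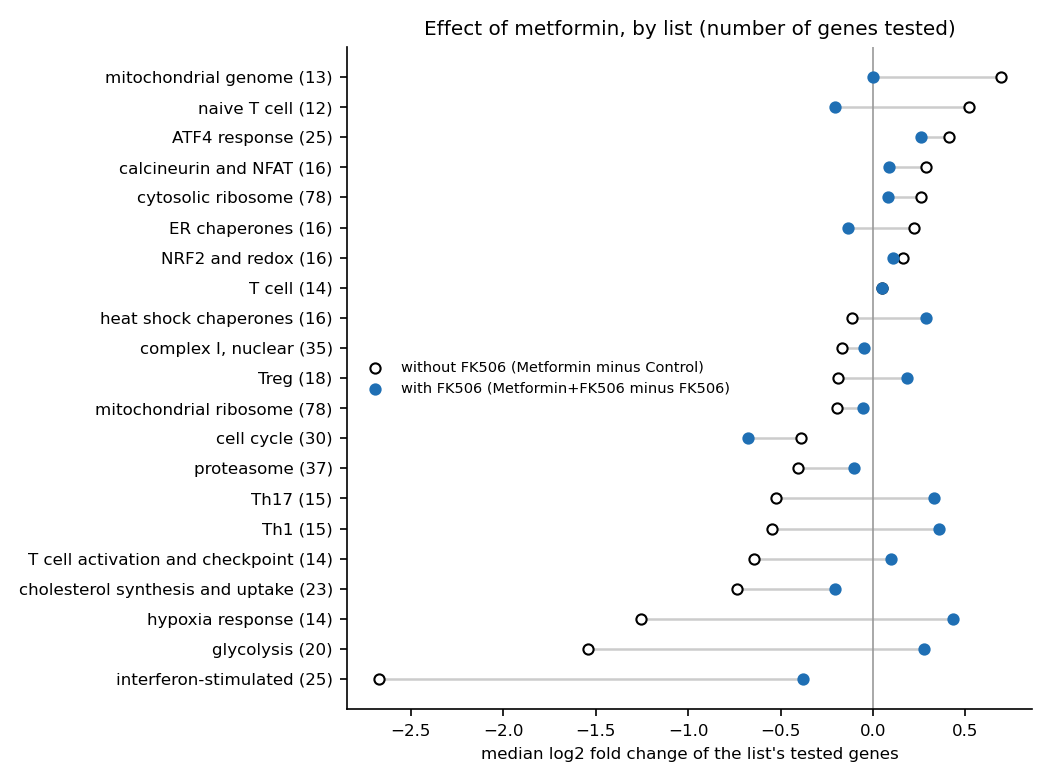
Median log2 fold change (x axis) of 21 lists (y axis) for metformin without FK506 (open circles, Metformin minus Control) and with FK506 (filled circles, Metformin+FK506 minus FK506), which share no samples. Glycolysis and hypoxia genes had medians of -1.54 and -1.26 without FK506 and of 0.28 and 0.44 with it, and the ATF4 response had medians of 0.41 and 0.26.

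Genes of the respiratory chain moved little. Of 35 nuclear genes of complex I, the target of metformin, 2 were higher and 4 lower, at a median log2 fold change of -0.050, and of 38 nuclear genes of the other complexes 1 was higher and 7 lower. The latter number was 3 without FK506 replicate 1 and 11 without Metformin+FK506 replicate 3, and after quantile normalization 3 were higher and 1 lower. Complex I held 3 higher and 2 lower without Metformin+FK506 replicate 1, and 6 lower without FK506 replicate 3 or Metformin+FK506 replicate 3. With library sizes set by T cell genes, 16 complex I genes and 25 of the other genes were lower. Among the 13 protein genes of the mitochondrial genome, COX1 rose by 0.35 and CYTB, ND4 and ND3 fell by 0.10, 0.19 and 0.25 on the log2 scale. COX1 had an adjusted p of 1 after quantile normalization of the FPKM values, and CYTB, ND4 and ND3 missed the threshold under 9, 4 and 11 of 17 alternatives. The number lower was 0 when FK506 replicate 3 or Metformin+FK506 replicate 1 was left out, 1 without FK506 replicate 1 and 1 with the replicate number as a block, and 6 with library sizes set by T cell genes, and the number higher was 3 without Metformin+FK506 replicate 1 and 2 without FK506 replicate 1. Metformin without FK506 had raised 13 of the 13, with a median of 0.69, and the interaction passed for 13, beside 48.0% of all genes tested. The 78 mitochondrial ribosomal protein genes held 4 higher and 10 lower, with 35 lower when library sizes were set by T cell genes, 5 lower without FK506 replicate 1 and 6 lower without Metformin+FK506 replicate 1.

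Proteasome and ER chaperone genes fell in part, and a minority of ribosomal protein genes changed. Of 78 cytosolic ribosomal protein genes, 18 were higher (beside 15.9% of all genes) and 2 lower, with a median log2 fold change of 0.081. This direction turned with library sizes set by T cell genes (3 higher and 11 lower), and the number higher lay between 8, without FK506 replicate 3, and 38, without Metformin+FK506 replicate 1. Proteasome subunit genes held 0 higher and 16 lower of 37, with a median of -0.10, and the number lower was 9 without FK506 replicate 1 and 32 with library sizes set by T cell genes. After quantile normalization 2 were higher and 10 lower. The largest falls among them were 0.31 for Psmd10, 0.25 for the immunoproteasome gene Psmb10 and 0.25 for Psmd6. ER chaperone genes, which are targets of the unfolded protein response, held 0 higher and 8 lower of 16, and 1 higher and 7 lower after quantile normalization. Calreticulin gene Calr had FPKM values of 341, 329.9 and 333 with FK506 and of 279, 286 and 278 with the combination. Each combination value was below each FK506 value, and the log2 fold change was -0.23 (standard error 0.0394, edgeR adjusted p = 0.000219). Hsp90b1, which encodes GRP94, fell by 0.27, Pdia4 by 0.28 and Sdf2l1 by 0.39. Hspa5, the gene for the central ER chaperone BiP, fell by 0.17, and after quantile normalization its log2 fold change was -0.049 with an adjusted p of 0.517.

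Sterol genes fell. Of 23 genes of cholesterol synthesis and uptake, which the factor SREBP2 controls, 0 were higher and 15 lower, with a median log2 fold change of -0.20. Sqle, which encodes squalene epoxidase, had FPKM values of 15.6, 16.8 and 16.1 with FK506 and of 12.2, 12.4 and 11.1 with the combination. All combination samples were below the FK506 samples, and Sqle fell by 0.42 on the log2 scale (standard error 0.0507, edgeR adjusted p = 6.72e-06). The isoprenoid synthesis genes Fdps and Idi1 fell by 0.36 and 0.35. Without FK506, metformin had lowered 19 of the 23, with a median of -0.73. Among 12 genes of fatty acid synthesis 2 were higher and 4 lower, beside 15.9% and 16.4% of all genes tested. The numbers were 1 and 7 with library sizes set by T cell genes. Without FK506 replicate 3, Metformin+FK506 replicate 2 or Metformin+FK506 replicate 3, 1 was higher. The desaturase genes Scd1 and Scd2 fell by 1.07 and 0.42, and the malic enzyme gene Me1 rose by 0.85.

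The AMPK and mTORC1 list held 7 higher and 3 lower of 22 genes (beside 15.9% and 16.4% of all genes), with a median log2 fold change of -0.012. This split turned with library sizes set by T cell genes, where 2 were higher and 9 lower, and 1 was lower without FK506 replicate 3. Prkaa1, the catalytic subunit of AMPK, and Mtor had log2 fold changes of -0.011 and 0.072, which did not pass the test. Eif4ebp1, a repressor of translation and an ATF4 target, rose by 0.56, the AMPK-binding Fnip1 by 0.49 and Tsc1 by 0.25 (not past the test with library sizes set by T cell genes), while the stress-induced Sesn1 fell by 0.33. Of 16 genes of the NRF2 antioxidant response, 8 were higher and 0 lower, and with library sizes set by T cell genes 4 were higher and 4 lower. Without Metformin+FK506 replicate 3, 5 were higher, and without replicate 2 of that group 1 was lower. Nqo1, a quinone reductase, had FPKM values of 6.43, 6.61 and 6.06 with FK506 and of 11.6, 14.7 and 14.7 with the combination. The combination samples were all above the FK506 samples, and the log2 fold change was 1.12 (standard error 0.117, edgeR adjusted p = 1.46e-06). Gclm, a subunit of the enzyme that starts glutathione synthesis, rose by 0.50. Txnip, an inhibitor of glucose uptake and one of the 6 genes with the smallest p among the falls, fell by 1.19 with FK506 present and had a log2 fold change of 0.33 between Metformin and Control.

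Cell cycle genes fell almost uniformly. Of 30 genes, 0 were higher and 28 lower, beside 16.4% of all genes, at a median log2 fold change of -0.67, and 28 were lower with each replicate left out in turn. Mki67, the proliferation antigen, had FPKM values of 16.8, 19.3 and 17.9 with FK506 and of 11.3, 10.4 and 11.2 with the combination. Top2a, the topoisomerase of dividing cells, had values of 28.04, 29.9 and 29.1 and 16.2, 15.6 and 16.9. In both genes each combination sample was below each FK506 sample, and the log2 fold changes were -0.71 (standard error 0.0467, edgeR adjusted p = 6.73e-09) and -0.82 (standard error 0.0414, edgeR adjusted p = 3.28e-10). The largest falls among those named were 1.26 for the spindle checkpoint kinase Bub1, 1.10 for cyclin A2, 1.10 for the kinesin Kif20a and 0.98 for Cdc20. Among genes of DNA replication, the helicase subunit Mcm5 fell by 0.48 and the sliding clamp Pcna by 0.22. The replication genes Mcm6 and Cdt1 did not pass the test (log2 fold changes -0.052 and -0.089). Metformin without FK506 had lowered 27 of the 30, with a median of -0.39, and the interaction passed for 17, beside 48.0% of all genes tested. The motif TTTGAA, which occurs in cell cycle homology regions, was present in the start windows of 10 of 24 of these genes (41.7%), against 14.9% of all.

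T cell genes moved in both directions. Of 14 T cell genes, 6 were higher and 4 lower, with a median log2 fold change of 0.048. Thy1 and the kinase gene Zap70 rose by 0.64 and 0.50 and Cd3e and Cd4 by 0.33 and 0.30. Naive T cell genes fell, with 0 of 12 higher and 8 lower. Ccr7, the chemokine receptor for lymph node entry, had FPKM values of 499, 493 and 487 with FK506 and of 289, 264 and 277 with the combination. The combination samples were all below the FK506 samples, and the log2 fold change was -0.82 (standard error 0.0412, edgeR adjusted p = 3.28e-10). Dapl1 fell by 1.08 and the chromatin organizer gene Satb1 by 0.56, whereas Tcf7 and Klf2 did not pass the test (0.027 and -0.17). Ccr7 is also expressed by B cells and dendritic cells, whose markers fell in the same samples. Without FK506, 9 of the 12 naive genes were higher with metformin, with a median of 0.52. The interaction passed for 12, beside 48.0% of all genes tested.

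Among activation and checkpoint genes 7 of 14 were higher and 3 lower. The largest change was the fall of Cd83, a surface marker that mature dendritic cells and B cells also carry, with FPKM values of 181, 179 and 174 with FK506 and of 87.5, 83.8 and 92.1 with the combination. These did not overlap, and Cd83 fell by 1.0 on the log2 scale (standard error 0.0363, edgeR adjusted p = 5.52e-12). The inhibitory receptor genes Pdcd1, Lag3 and Ctla4 rose by 0.36, 0.29 and 0.24. With library sizes set by T cell genes, 4 of this list were higher and 5 lower. Of 18 Treg genes, 9 were higher and 2 lower, with a median log2 fold change of 0.19. That scaling gave 7 higher and 5 lower, with a median of 0.077. The ecto-nucleotidase gene Nt5e (CD73) rose most, with FPKM values of 42.8, 43.2 and 43 with FK506 and of 63.6, 62.1 and 57.6 with the combination. These did not overlap, and its log2 fold change was 0.53 (standard error 0.0472, edgeR adjusted p = 2.54e-07). Izumo1r (folate receptor 4) rose by 0.38, Lrrc32 (GARP) by 0.37 and Il10 by 0.37, which missed the threshold under 9 of 17 alternatives. Foxp3, the factor that defines Treg cells, had FPKM values of 27.7, 26.9 and 25.4 with FK506 and of 32.4, 30.7 and 33.6 with the combination. The lowest combination value lay above the highest FK506 value, and Foxp3 rose by 0.29 (standard error 0.0669). Ikzf4 (Eos) and Tnfrsf18 (GITR) fell, by 0.50 and 0.28, and Il2ra, Entpd1 and Klrg1 did not pass the test (0.034, -0.10 and -0.26).

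Th1 and Th17 genes were split. Of 15 Th1 genes, 8 were higher and 3 lower, with a median log2 fold change of 0.36. With library sizes set by T cell genes 6 were lower. The chemokine receptor gene Cxcr3 had FPKM values of 34.5, 34.03 and 32.7 with FK506 and of 53.7, 51.5 and 59.6 with the combination. The groups did not overlap, and its log2 fold change was 0.72 (standard error 0.0738, edgeR adjusted p = 1.18e-06). The interleukin 18 receptor gene Il18r1 and Ifng rose by 0.60 and 0.66, the latter from a low mean FPKM of 2.98. Ccl5 fell by 1.06 and Hlx by 0.80. Of 15 Th17 genes, 6 were higher and 3 lower. Rora, which encodes a nuclear receptor of Th17 cells, had FPKM values of 5.01, 5.77 and 5.45 with FK506 and of 9.69, 9.62 and 10.1 with the combination. All combination samples were above the FK506 samples, and the log2 fold change was 0.87 (standard error 0.0684, edgeR adjusted p = 5.16e-08). The interleukin 23 receptor gene Il23r rose by 0.91, whereas Ccr6, the chemokine receptor of Th17 cells that B cells also carry, fell by 0.76, and Stat3 and Batf fell by 0.33 and 0.24. Batf missed the threshold without FK506 replicate 3 or Metformin+FK506 replicate 2. The cytokine genes Il17a, Il17f and Il22 were near the detection filter and did not pass the test (log2 fold changes 0.33, 0.48 and -0.29). Without FK506, 6 Th1 genes were higher and 9 lower with metformin, with a median of -0.54, and 1 Th17 gene was higher and 8 were lower, with a median of -0.52. The interaction passed for 13 of the 15 Th1 and 11 of the 15 Th17 genes, beside 48.0% of all genes tested.

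Targets and parts of the calcineurin pathway held 5 higher and 4 lower of 16 genes, beside 15.9% and 16.4% of all genes tested. With library sizes set by T cell genes, 4 were higher and 5 lower. Nfatc1 and Nfatc2 rose by 0.40 and 0.33, and the orphan receptor gene Nr4a2 and the calcineurin catalytic subunit gene Ppp3ca fell by 0.87 and 0.27, Ppp3ca not after quantile normalization. Il2, the cytokine most dependent on NFAT, was low in both groups, with FPKM values of 0.712, 0.871 and 0.626 with FK506 and of 0.639, 0.854 and 1.65 with the combination. The ranges overlapped, with 1 combination sample above the others, and its log2 fold change of 0.49 did not pass the test (edgeR adjusted p = 0.218). Fkbp1a, the gene of the protein that FK506 binds, had a log2 fold change of 0.072.

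Interferon-stimulated genes fell as a group, with exceptions. Of 25 genes, 4 were higher and 18 lower, with a median log2 fold change of -0.38. These numbers were 2 and 21 with library sizes set by T cell genes. Mx1, which belongs to a family of antiviral GTPases and is annotated as a transcribed pseudogene in the deposited table, had FPKM values of 16.9, 16.4 and 18.5 with FK506 and of 3.71, 3.67 and 3.86 with the combination. The drop was seen in all 3 samples, and the log2 fold change was -2.19 (standard error 0.0722, edgeR adjusted p = 1.7e-12). Ifit3 fell by 1.27, Oas2 by 0.87, the guanylate-binding protein gene Gbp2 by 0.62 and Gbp5, outside the list and among the smallest p-values, by 1.45. Rsad2, which encodes viperin, went the other way, with FPKM values of 1.85, 1.58 and 1.40 with FK506 and of 3.84, 2.88 and 3.40 with the combination. All 3 combination values were above the FK506 values, and its log2 fold change was 1.07 (standard error 0.128). Usp18, the protease that removes ISG15, rose by 0.82. Without FK506, 22 of the 25 fell with metformin and the median was -2.68. The interaction passed for 24, beside 48.0% of all genes tested.

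Promoters of Gbp2 and Isg15 and of the exception Rsad2 are shown, since members of the list moved in opposite directions. Gbp2 and Isg15 had the largest falls of the list genes that hold the motif and whose start site is the outer end of the RefSeq gene, and Isg15 missed the threshold when only the 6 samples were fitted. Each stretch ends before the start site, and matches to GAAANNGAA, the core of the interferon-stimulated response element, are in capitals on whichever strand they lie.
Gbp2 (chr3:142620559-142620658, plus strand): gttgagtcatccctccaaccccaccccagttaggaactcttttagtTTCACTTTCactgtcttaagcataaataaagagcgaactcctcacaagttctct
Isg15 (chr4:156200837-156200936, minus strand): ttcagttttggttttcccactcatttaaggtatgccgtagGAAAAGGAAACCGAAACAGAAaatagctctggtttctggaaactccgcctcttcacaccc
Rsad2 (chr12:26456518-26456617, minus strand): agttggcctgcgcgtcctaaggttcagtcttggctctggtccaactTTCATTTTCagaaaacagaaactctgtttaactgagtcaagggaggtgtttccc
The motif was found once in the window of Gbp2, which fell by 0.62, in 3 overlapping places in that of Isg15, which fell by 0.51, and once in that of Rsad2, which rose by 1.07. It was present in 12 of the 19 list genes with a start window (63.2%) and in 8.84% of all tested genes with one.

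Cytokine genes moved in both directions. Il12b, the p40 subunit of interleukins 12 and 23, had FPKM values of 5.01, 4.90 and 5.86 with FK506 and of 16.01, 15.8 and 14.6 with the combination. The combination samples were all higher, by 1.58 on the log2 scale (standard error 0.0922, edgeR adjusted p = 8.06e-09). Il1b, the inflammasome cytokine, had values of 11.4, 11.6 and 10.5 and 2.33, 2.83 and 2.23. Here the combination samples were all lower, at a log2 fold change of -2.20 (standard error 0.224, edgeR adjusted p = 1.06e-06). Il1a fell by 0.90 and Tnf rose by 0.38. Of 18 cytokine genes, 7 were higher and 2 lower, but 4 and 5 with library sizes set by T cell genes. Of 16 chemokine genes, 1 was higher (Cxcl9, by 0.42, not past the test without FK506 replicate 2 or Metformin+FK506 replicate 1) and 5 were lower. Ccl6 and Ccl9, which myeloid cells secrete, fell by 1.26 and 0.78.

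B cell genes fell without exception. All 12 tested B cell markers were lower with the combination, at a median log2 fold change of -1.0, and 12 were lower with each replicate left out in turn. Their summed FPKM lay between 946.5 and 993 with FK506 and between 457 and 492 with the combination, and had a median of 63.7 in Control and 97.1 with metformin. Cd79a, a chain of the B cell receptor, had FPKM values of 299, 299.9 and 282 with FK506 and of 156, 152 and 160.0 with the combination. The 2 ranges were far apart, and the log2 fold change was -0.89 (standard error 0.0498, edgeR adjusted p = 1.03e-09). Ms4a1 (CD20) fell by 1.56, the complement receptor gene Cr2 fell by 1.44, and Pax5 and Cd22 had log2 fold changes of -0.99 and -0.63. In bulk samples, fewer cells of a type and less RNA per cell cannot be told apart. Immunoglobulin variable segments, a list added after the values had been seen, held 6 higher and 96 lower of 186 (3 higher without FK506 replicate 3). T cell receptor variable segments held 3 higher and 1 lower of 128, 0 higher and 4 lower with library sizes set by T cell genes, and 1 to 7 higher and 0 to 2 lower with each replicate left out. Of 10 MHC class II genes, 2 were higher (1 with library sizes set by T cell genes) and 8 lower. Cd74, the invariant chain, had FPKM values of 2275, 2234 and 2198 with FK506 and of 1515, 1430.0 and 1605 with the combination, which did not overlap, and fell by 0.55. H2-Eb1 and the transactivator gene Ciita rose by 0.26 and 0.24, although Ciita missed the threshold under 2 of 17 alternatives.

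**Figure D4:**
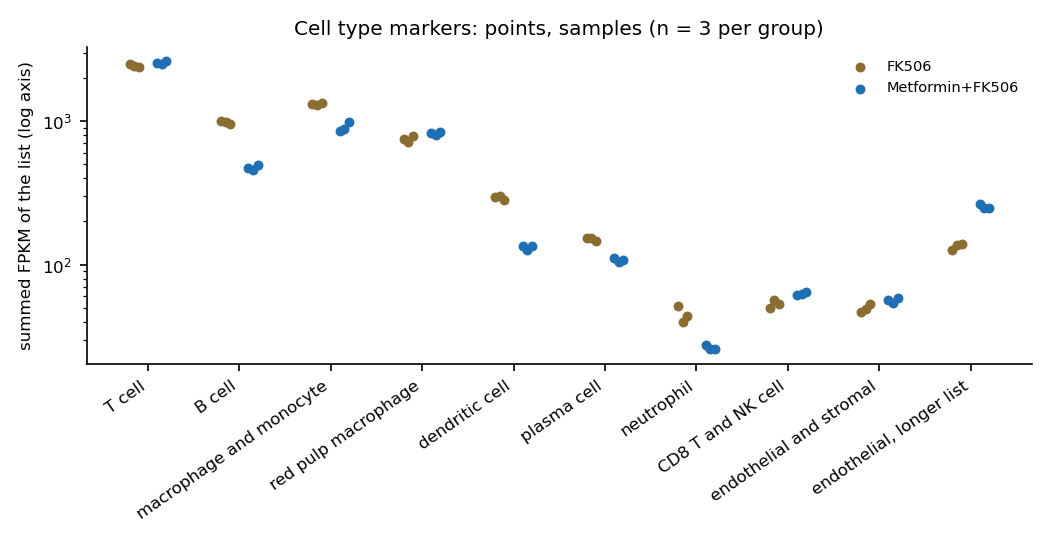
Summed FPKM of cell type marker lists (y axis, log scale) in each of the 3 FK506 and 3 Metformin+FK506 samples (points, colour by group), by list (x axis). The B cell sums lay between 946.5 and 993 with FK506 and between 457 and 492 with the combination, and those of dendritic cell markers between 283 and 298 and between 126 and 135.

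Dendritic cell genes fell as well. Of 7 tested markers, 0 were higher and 5 lower, with Xcr1 and Clec9a below the filter on low values. Flt3, the growth factor receptor of dendritic cell precursors, fell by 0.54, the integrin gene Itgax (CD11c) by 0.81 (not past the test by DESeq2) and Zbtb46 by 0.61. Ccl22, a chemokine of mature dendritic cells, had FPKM values of 152, 145 and 138 with FK506 and of 32.8, 30.8 and 34.9 with the combination. Apol7c, an apolipoprotein L family gene, had values of 139, 141 and 135 and 16.1, 15.3 and 17.7. Neither pair of ranges overlapped, and the log2 fold changes were -2.13 (standard error 0.0613) and -3.07 (standard error 0.0680, edgeR adjusted p = 2.87e-14). Of 16 genes of activated dendritic cells, a list written after the values had been seen that shares Ccl22 with the 7 markers, 2 were higher and 13 lower. The actin bundler gene Fscn1 fell by 1.32, the tryptophan-degrading enzyme gene Ido1 fell by 2.24, and the costimulatory ligand genes Cd80 and Cd86 by 1.21 and 0.49.

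Macrophage genes were split. Of 14 macrophage and monocyte markers, 5 were higher and 3 lower, with a median log2 fold change of 0.16, although their summed FPKM fell from between 1293 and 1327 to between 845 and 981. Without Lyz2, the sum lay between 316 and 337 with FK506 and between 351 and 373 with the combination. Lyz2, which encodes lysozyme, had FPKM values of 972, 978 and 993 with FK506 and of 483, 525 and 609.5 with the combination, which did not overlap, and its log2 fold change was -0.85 (standard error 0.0770). The mannose receptor gene Mrc1 rose by 0.57, the complement gene C1qc by 0.38 and Cd68 by 0.17. Cd68 missed the threshold with library sizes set by T cell genes and by limma with a pseudocount of 0.1. Red pulp macrophage genes, which handle iron from old red cells, held 3 higher and 1 lower of 10, beside 15.9% and 16.4% of all genes. The iron exporter gene Slc40a1 rose by 0.33 and heme oxygenase gene Hmox1 by 0.20, and Spic, the factor that defines these cells, did not pass the test (0.026). With library sizes set by T cell genes, 3 macrophage and monocyte genes were higher and 4 lower, 1 red pulp gene was higher and 3 lower, and Hmox1 missed the threshold. Of the macrophage and monocyte genes 1 was lower without FK506 replicate 1, Metformin+FK506 replicate 1 or Metformin+FK506 replicate 2.

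Granulocyte genes were low, and part of them fell. Of 8 neutrophil genes, 0 were higher and 4 lower, with S100a9 falling by 0.74 and the granule gene Ngp by 2.54. The basophil protease genes Prss34 and Mcpt8 were the largest falls of all named genes. Prss34 had FPKM values of 5.36, 6.11 and 3.07 with FK506 and Mcpt8 of 3.89, 3.10 and 1.73, and both had a count of 0 in all 3 combination samples. Against a floor of 3 counts per library, Prss34 was at least 109-fold lower and Mcpt8 at least 46.0-fold lower, bounds that cover counting error only. Chil3, a chitinase-like protein of myeloid cells, fell by 3.08, from a mean FPKM of 3.69 to 0.425. CD8 T cell and NK cell genes held 4 higher and 0 lower of 8 by edgeR, with Gzmk and Klrk1 rising by 0.76 and 0.61 and Cd8a not past the test (0.20).

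Endothelial genes rose. Cdh5, which encodes the junction protein VE-cadherin, had FPKM values of 3.09, 3.54 and 4.02 with FK506 and of 9.60, 8.80 and 10.6 with the combination. The combination samples lay above all FK506 samples, and the log2 fold change came to 1.46 (standard error 0.106, edgeR adjusted p = 7.72e-08). Of 19 tested endothelial genes, a longer list added after the values had been seen that also holds Cdh5, Kdr and Pecam1, 16 were higher and 0 lower by edgeR, with a median log2 fold change of 1.16. The vascular genes Egfl7 and Robo4 rose by 1.54 and 1.35, the basement membrane collagen gene Col4a1 by 1.27, the TGF-β coreceptor gene Eng by 1.26, and Plvap, a protein of fenestrated vessels, by 1.01. Kdr, the main VEGF receptor, rose by 1.14 by edgeR (adjusted p = 5.88e-05) and had an adjusted p of 0.261 by DESeq2. Pecam1, which leukocytes also express, had a log2 fold change of 0.0054 and did not pass the test. In the shorter list of 6 endothelial and stromal markers, which holds the same 3 genes, Cdh5 and Kdr were higher and the fibroblast collagen gene Col1a1 was lower, by 1.02, but not without FK506 replicate 3 or Metformin+FK506 replicate 1, and 2 genes were lower with library sizes set by T cell genes. The summed FPKM of the 19 genes and the untested members lay between 126.5 and 139.5 with FK506 and between 247 and 266 with the combination. Whether B cell, dendritic cell, macrophage and endothelial RNA had a part in the results of genes that these cells share with T cells was not tested.

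Several other genes stood out by size or p. Igfbp4, a binding protein of insulin-like growth factors, had FPKM values of 4.97, 4.93 and 5.79 with FK506 and of 33.2, 35.4 and 41.5 with the combination. The groups were widely separated, at a log2 fold change of 2.84 (standard error 0.0792, edgeR adjusted p = 2.55e-13), and the mean in Control was 24.1. Plxnd1, a semaphorin receptor, had values of 24.8, 26.9 and 26.02 and 65.1, 59.6 and 61.5. It rose by 1.29 in samples that did not overlap, and had a log2 fold change of -0.53 between Metformin and Control. Jdp2, a repressor of AP-1 and ATF sites, rose by 1.85. Slc6a4, the serotonin transporter gene, Myo18b, Phlda2, Fam167b, Efhd1, Tm4sf19, Cgnl1 and Maoa, which encodes monoamine oxidase A, completed the 12 largest rises, all from means under 1.1 FPKM with FK506, and Tm4sf19 had an adjusted p of 0.256 by DESeq2. Foxj1, a transcription factor of quiescence in T cells, had FPKM values of 4.34, 4.28 and 5.14 with FK506 and of 0.393, 0.507 and 0.347 with the combination. All combination values were lower, at a log2 fold change of -3.41 (standard error 0.205, edgeR adjusted p = 2.33e-09). Gls2, a mitochondrial glutaminase and p53 target, fell by 3.02, from a mean of 5.99 to 0.731. The pattern receptor gene Nod2 fell by 2.34, the serotonin receptor gene Htr7 by 2.84, Fgd2, a guanine exchange factor of antigen presenting cells, fell by 2.26, Shisa8 fell by 2.29 and Ell3 fell by 2.26.

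The effect of metformin in the presence of FK506 differed from its effect in the absence of FK506 over much of the transcriptome. Between Metformin and Control 8222 genes changed (57.0%), with 4135 higher and 4087 lower. Of the 4658 genes changed by the addition to FK506, 3124 also changed without it, 1828 in the same direction and 1296 in the opposite one. Among the 589 genes that moved 2-fold or more with FK506, 114 had changed the same way and 114 the opposite way. Across the 14420 genes the log2 fold changes of both effects had a Pearson's r of 0.035 and a Spearman's rho of 0.087. This is a description over genes, which are not independent replicates. The filter used only the FK506 and combination samples. The set therefore includes genes near 0 in Control and with metformin, whose changes there rest on few reads and can lower both values. The interaction passed for 6915 genes (48.0%), 2982 of them among the 4658. Groups with the same direction in both settings included the ATF4 response (15 of 25 genes higher with FK506 and 18 without), the cell cycle (28 and 27 of 30 lower), cholesterol synthesis (15 and 19 of 23 lower), the proteasome (16 and 31 of 37 lower), the cytosolic ribosome (18 and 73 of 78 higher, turned with FK506 when library sizes were set by T cell genes) and the interferon-stimulated genes (18 and 22 of 25 lower). Groups with opposite directions included glycolysis, hypoxia and naive T cell genes, with 18, 10 and 0 higher with FK506 and 0, 0 and 9 without. Among B cell, MHC class II and ER chaperone genes 12, 8 and 8 were lower with FK506, whereas 9, 7 and 9 were higher without it. The B cell and MHC class II effects start from unlike levels. Their summed FPKM had medians of 989.6 and 4215 with FK506 alone, against 63.7 and 282 in Control. Treg genes had 9 higher and 2 lower with FK506 and 2 higher and 11 lower without, and heat shock chaperone genes 13 and 0 with it and 4 and 8 without. Unlike that list, Hspa1b rose in both settings, by 3.45 with FK506 and by 1.24 without, and the difference of 2.21 passed the interaction test (edgeR adjusted p = 4.87e-11).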

How the data were processed

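Poly(A) RNA of 12 samples of mouse splenic CD4+ T cells, 3 in each of 4 groups, was analysed, and groups were taken from the sample labels. The authors deposited whole-number read counts for each gene, not normalized, and FPKM values, which scale reads to library size and transcript length. The submitters' processing notes name HISAT2 2.1.0, StringTie 2.1.3b, bcl2fastq 2.20.0, Trimmomatic and the build mm10, and strand use in counting is not given in the sources used here. A further 12 per-sample columns, in another unit, were left out. All 12 samples entered 1 fit with edgeR 4.0.16 in R 4.3.3 (TMM, glmQLFit and glmQLFTest, 8 residual degrees of freedom), with Benjamini-Hochberg adjustment over 14420 genes. FPKM values describe levels and counts give the tests, so a gene's FPKM ratio can differ from its fold change. A group with 3 counts or fewer in every library was taken as at the floor. The counted reads per library, 43402632 to 64290105, limit precision by counting error only, and p-values rest on 3 samples a group. DESeq2 1.42.0 and limma 3.58.1 (pseudocounts of 1 and 0.1 on FPKM), other scalings and filters, the replicate number as a block and each replicate left out were the alternatives. The labels do not say whether equal replicate numbers pair the samples, and the main fit did not pair them. Genes were named by size (12 largest rises and falls with a mean FPKM of at least 2 in the higher group and groups that did not overlap, without predicted genes and receptor segments), by p (6 smallest in each direction), or as members of 40 lists. The members and lists were chosen with earlier results of these data known, and 5 further lists were added after the values had been seen. Start windows were taken from RefSeq (GRCm38.p6, the assembly of mm10). Some list members are not reported here by name. The code was tested on simulated data.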

Additional observations from a re-analysis of the deposited data

Results flagged for a closer look

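Of the 31 genes named by size or by p, 20 showed an effect of metformin that differed with and without FK506 (interaction in the edgeR fit, Benjamini-Hochberg adjusted p under 0.05, beside 48.0% of all genes tested). These genes were chosen for their change with FK506, which is a term of the interaction, so their share cannot be read against that of all genes. The values that follow are log2 fold changes of Metformin+FK506 against FK506 minus those of Metformin against Control. Rises that were larger with FK506 were found for Hspa1b (difference 2.21), Hspa1a (1.87), Atf5 (0.61), Jdp2 (0.73) and Maoa (0.98), and each of these also had a positive value without FK506. Igfbp4 (2.66) rose with FK506 and had a log2 fold change of 0.18 without it. Plxnd1 (1.82) rose by 1.29 with FK506 and had a log2 fold change of -0.53 without it. Larger falls with FK506 were found for Foxj1 (-1.61), Gls2 (-1.77), Nod2 (-1.78), Fgd2 (-1.0), Gbp5 (-1.02), Ccl22 (-1.57) and Cd83 (-0.38), all of which had negative values without it. Txnip (-1.52) fell with FK506 and had a log2 fold change of 0.33 without it. Mx1 (0.67) fell by 2.19 with FK506, less than its log2 fold change of -2.86 without it. Efhd1 (2.13), Apol7c (-3.14), Htr7 (-2.20) and Ell3 (-2.73) had mean FPKM values of at most 0.201 in Control and with metformin, so their effect without FK506 rests on few reads. Maoa and Nod2 were low there too, with means of at most 0.336. Groups of 3 samples were too small for a check of single outlying samples.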

How the results depend on the processing

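The side of the threshold held in 3343 of the 3430 gene values recomputed for 202 genes, with 75 no longer past it (in 24 genes) and 12 newly past it. No value past the threshold changed sign, whereas 12 genes had values of either sign, none of them past the test as reported. The number of changed genes lay between 3710 and 4695 with each replicate left out. With library sizes set by T cell genes, 1227 genes were higher and 4712 lower, 32 proteasome genes were lower, and 4 NRF2 and 3 cytosolic ribosome genes were higher. Requiring a log2 fold change of 1 or more as well left 589 genes (266 higher and 323 lower) and 142 list genes, with 3 cell cycle, 6 B cell, 1 dendritic cell, 2 interferon-stimulated and 1 naive T cell genes lower, 1 glycolysis, 2 hypoxia, 6 ATF4 and 1 NRF2 genes higher, and 0 in the leading direction of the MHC class II, cholesterol, ER chaperone, proteasome, Treg, Th1, Th17 and cytosolic ribosome lists. Quantile normalization gave 10 proteasome genes lower. NRF2 genes higher numbered 5 with limma at either pseudocount. Cytosolic ribosome genes higher numbered 8 and 10 with limma (pseudocounts 0.1 and 1), 10 without a filter and 11 with only the 6 samples. Each replicate left out gave 9 to 16 proteasome genes lower, 5 to 9 NRF2 genes higher (5 without Metformin+FK506 replicate 3), and 8 to 38 cytosolic ribosome genes higher. The replicate block over all samples gave 4336 changed genes and moved 4 list counts by over 1.5 times, to 1 mitochondrial genome gene lower, 0 T cell receptor segments lower, 0 hemoglobin genes higher and 2 endothelial and stromal genes lower. With only the 6 samples and the block, an alternative chosen after seeing the data, 3136 genes changed, with 9 cholesterol and 5 proteasome genes lower and 6 cytosolic ribosome genes higher. Deviations of same-numbered FK506 and combination samples correlated at 0.0047, -0.11 and 0.050. The labels do not say whether equal numbers share a mouse or a culture, which these values cannot decide. The interaction count lay between 6565 and 7511. The cause of these shifts was not tested.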

Other observations

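The remaining lists moved as follows. Of 7 Th2 genes, 1 was higher and 0 were lower by edgeR (1 was lower at an unadjusted p under 0.05 and by DESeq2, and 0 by limma). The numbers were 2 and 0 without FK506 replicate 2 or Metformin+FK506 replicate 2, 1 and 1 without FK506 replicate 3 or Metformin+FK506 replicate 1, and 1 and 2 with library sizes set by T cell genes. The rise was that of Gata3, the factor that defines Th2 cells, by 0.25 on the log2 scale. Of 7 plasma cell genes, 1 was higher and 4 were lower. The joining chain gene Jchain fell by 1.14, the secretory pathway genes Mzb1 and Derl3 had log2 fold changes of -0.71 and -1.62, and the surface proteoglycan gene Sdc1 rose by 0.80. Of 18 lysosome genes, 4 were higher and 3 lower, beside 15.9% and 16.4% of all genes tested. The number lower was 5 by DESeq2 and limma, and 9 with library sizes set by T cell genes. The protease genes Ctsl and Lgmn rose by 0.51 and 0.42, and the progranulin gene Grn fell by 0.24. Cholesterol efflux genes held 3 higher and 1 lower of 7, with Lpcat3 falling by 0.26, and 1 higher and 3 lower with library sizes set by T cell genes.

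Of 5 basophil and mast cell genes, 3 were lower, Prss34, Mcpt8 and the receptor kinase gene Kit, which fell by 0.57 (not past the test by DESeq2), and 0 were higher (0 at an unadjusted p under 0.05 and by DESeq2, 1 by limma). The platelet chemokine gene Ppbp fell by 1.49 (not past the test without FK506 replicate 2), as 1 of 4 platelet genes (2 with library sizes set by T cell genes), with 0 higher by edgeR, DESeq2 or limma, and Pf4 had a log2 fold change of 0.67 that passed at an unadjusted p under 0.05 and, after adjustment, without Metformin+FK506 replicate 1. Of 2 tested hemoglobin genes, Hbb-bs rose by 1.19, from a mean FPKM of 0.500 to 1.15, and missed the threshold under 7 of 16 alternatives.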
